A study of Mus musculus with 9 samples.

Results

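The interstitial matrix and fibroblast genes are 42 of the 21935 genes in a table of mouse kidney transcripts. They were picked by name, as rows whose gene name equals that of a collagen, proteoglycan, elastic fibre protein or other matrix component, or of a receptor or cytoskeletal protein of matrix-producing cells. All 42 were found, and all 42 were among the 14069 genes that had enough reads to be tested. The choice was made with earlier results of these data known, so shares of the 42 beside shares over all genes are descriptive.

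Kidneys of C57BL/6 mice labelled as female were sequenced as 9 RNA libraries, 3 in each of 3 groups. The first group, named Con in the labels, held wild-type mice given 0.5 ml of saline. The second group, named PIL, held wild-type mice given 0.5 ml of pristane, a hydrocarbon oil that induces lupus-like autoimmunity, once into the peritoneum at 4 weeks of age. The third group, named GKO, held Gsdmd-/- mice, which carry a deletion of the gene for gasdermin D, a protein that forms pores in the membrane of dying cells. Its treatment label reads none, while the study's text describes sequencing of Gsdmd-/- mice after pristane, so the group is called GKO here and its treatment is left as these sources give it. An age of 4 weeks at injection is recorded for all 3 groups, and kidneys were taken 31 weeks after the injection. Whether the 3 libraries of a group stand for 3 mice is not stated, so an SD, standard error or p-value here reflects how far libraries differ, which may be technical.

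Between the tubules of the kidney lies a thin interstitium of fibroblasts, pericytes and matrix. Fibroblasts secrete collagen I and III, which assemble into fibrils after their propeptides are cut off, are spaced by small proteoglycans and are crosslinked by lysyl oxidases. In chronic injury these cells multiply, many turn on the contractile actin gene Acta2, and matrix accumulates as fibrosis. Transforming growth factor beta, held in the matrix by latent binding proteins, is a well-known inducer of collagen genes through SMAD factors.

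Libraries held 13311063 to 16299328 counts. The PIL libraries were the least alike, at 84.1, 49.7 and -0.133 on a first principal component with 41.7% of the variance, where the Con libraries lay between -43.8 and -13.7. Y-linked genes had 1854 to 3077 counts in each Con library and 0 in the other 6 libraries, which goes against the female label for Con. In every comparison with Con, this difference and the named group therefore cannot be told apart, whereas GKO against PIL does not carry it. If the GKO treatment label of none holds, genotype and pristane cannot be told apart in GKO against PIL. If those mice had pristane, the same holds for GKO against Con. Gsdmd had 7.06, 11.6 and 4.40 CPM in Con, 6.56, 20.1 and 10.7 in PIL, and 2.06, 2.04 and 1.61 in GKO, so every GKO library was below the other 6 (edgeR, adjusted p = 0.127 against PIL). CPM is the count of a gene scaled to a common library size.

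Of the 42 genes, 27 had a RefSeq entry for the 250 bases before a transcription start, some with several starts, 33 windows in all. The windows below (build GRCm38.p6, each written in the direction of its gene) belong to a gene that was higher in PIL than in Con (Thbs2), to the gene that was lower (Ltbp1), to the gene lower in GKO than in Con with the smallest p-value (Postn) and to a main fibril collagen (Col3a1). They are the windows that end at, or up to 39 bases before, the gene start of the deposited table. Thbs2 lies at chr17:14694263-14694512 on the minus strand, Ltbp1 at chr17:75005279-75005528, Postn at chr3:54360857-54361106 and Col3a1 at chr1:45311288-45311537, these 3 on the plus strand. Capitals mark the letters of 4 motifs searched on both strands. These were the SMAD box (CAGAC), the AP-1 site (TGANTCA), the CCAAT box (CCAAT) and the TATA box (TATAAA). Different motifs, such as CAGAC and TGANTCA, can overlap.
Thbs2: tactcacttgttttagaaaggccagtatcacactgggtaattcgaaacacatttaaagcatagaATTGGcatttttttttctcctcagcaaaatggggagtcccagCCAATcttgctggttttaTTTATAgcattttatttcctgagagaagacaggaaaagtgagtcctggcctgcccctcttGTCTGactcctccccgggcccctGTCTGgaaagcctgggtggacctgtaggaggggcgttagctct
Ltbp1: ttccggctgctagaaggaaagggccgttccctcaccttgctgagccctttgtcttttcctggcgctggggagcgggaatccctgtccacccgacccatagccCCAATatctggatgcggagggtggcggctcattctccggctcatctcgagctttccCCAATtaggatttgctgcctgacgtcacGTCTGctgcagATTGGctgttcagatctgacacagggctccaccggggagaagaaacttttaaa
Postn: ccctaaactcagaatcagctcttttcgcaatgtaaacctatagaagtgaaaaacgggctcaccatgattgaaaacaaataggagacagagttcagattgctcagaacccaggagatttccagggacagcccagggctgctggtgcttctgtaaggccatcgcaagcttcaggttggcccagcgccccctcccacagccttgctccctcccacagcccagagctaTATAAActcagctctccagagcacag
Col3a1: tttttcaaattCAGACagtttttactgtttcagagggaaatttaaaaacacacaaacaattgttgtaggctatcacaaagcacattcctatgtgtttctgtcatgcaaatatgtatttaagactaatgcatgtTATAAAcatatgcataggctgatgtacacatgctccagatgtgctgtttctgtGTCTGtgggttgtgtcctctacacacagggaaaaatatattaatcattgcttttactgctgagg
The SMAD letters were in 19 of the 33 windows (57.6%) and in 42.2% of all 32851 mouse windows of that length, and the TATA letters in 8 (24.2%) against 12.4%. The CCAAT letters were in 7 windows (21.2%, against 33.9%) and the AP-1 letters in 1 (3.03%, against 6.75%). Such short letters match by chance in many windows, and a match is no evidence of binding.

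Per unit of gene length, as FPKM (CPM divided by gene length in kilobases, without scaling between libraries, means of 3 libraries), the highest levels in PIL belonged to Mgp at 445, an inhibitor of calcification, Sparc at 140, a collagen-binding glycoprotein, and Bgn at 139, a small leucine-rich proteoglycan. Acta2, Vim and Fbln5 followed at 55.2, 46.4 and 31.6 FPKM, and then the fibril collagens Col1a1 and Col3a1 at 27.6 and 27.2. In Con the same 3 genes led, with 79.7 FPKM for Mgp, 56.3 for Sparc and 35.9 for Bgn, and in GKO they had 87.0, 37.9 and 38.6. The lowest levels in PIL were those of Postn at 0.37 FPKM and the large proteoglycan gene Vcan at 0.16.

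PIL against Con asks what the kidney of pristane-treated wild-type mice expresses beyond that of saline-treated mice. Part of the matrix genes were higher in PIL. Of the 42, 12 were called higher (a quasi-likelihood test by edgeR across the 3 groups, adjusted p under 0.05 over all 14069 genes) and 1 was called lower. Over all genes tested, 4.48% were called higher and 3.14% lower. The log2 fold change was above 0 for 39 genes and below 0 for Postn, Vcan and Ltbp1, and its median was 1.15 against 0.01 over all genes tested. The 3 PIL libraries lay wholly above the 3 Con libraries for 19 of the 42 genes and wholly below for 2, where the shares over all genes were 13.4% and 11.7%. In whole tissue, more cells of a type and more RNA per cell cannot be told apart.

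**Figure D1:**
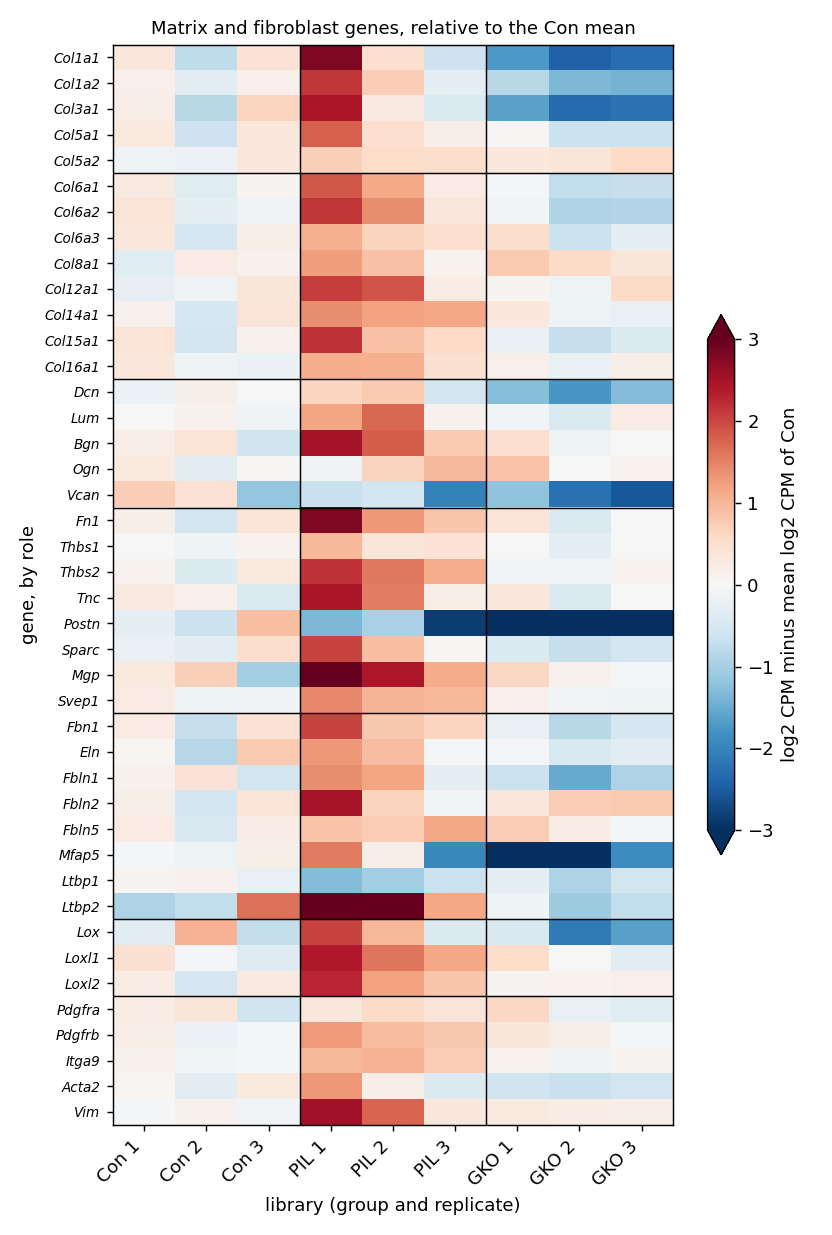
Each cell is the log2 CPM of 1 gene in 1 library minus that gene's mean log2 CPM in Con, with genes in rows by role (from top: fibril-forming collagens, other collagens, proteoglycans, adhesive and matricellular proteins, elastic fibre proteins, crosslinking enzymes, receptors and cytoskeleton) and libraries in columns, and the colour scale ends at 3 in each direction. Red fills most of PIL 1 and PIL 2, where 37 and 36 of the 42 genes lay above the range of Con. It is sparser in PIL 3, where 21 did. Over all genes tested, 39.0%, 32.1% and 25.9% lay above that range in PIL 1, 2 and 3.

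The steadiest differences were those of Svep1 and Itga9, a matrix ligand and its integrin receptor subunit. Svep1, a large adhesion protein of many repeats, had 25.0, 19.1 and 19.4 CPM in the Con libraries, 57.1, 42.5 and 42.2 in PIL, and 23.3, 20.0 and 19.2 in GKO. All 3 PIL libraries were above the other 6, and Con and GKO overlapped. Its PIL mean was 2.23 times the Con mean (log2 fold change 1.16, standard error 0.17, edgeR adjusted p = 0.00692). Itga9, the alpha 9 integrin subunit, had 21.7, 18.9 and 19.4 CPM in Con, 39.9, 40.9 and 33.6 in PIL, and 21.4, 18.6 and 21.3 in GKO. Again the PIL libraries stood above all others, and no group spanned more than 1.22 times from its lowest to its highest library. The log2 fold change was 0.93 (standard error 0.12, edgeR adjusted p = 0.00495). These 2 genes, out of the 13 called, kept their call in all 16 other settings run (adjusted p from 7.48e-08 to 0.0464).

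Pdgfrb and Thbs2 came next. Pdgfrb encodes the PDGF receptor of pericytes and fibroblasts, and had 62.5, 47.9 and 52.9 CPM in Con, 131, 104 and 94.4 in PIL, and 69.7, 60.7 and 52.6 in GKO. Thbs2, a matricellular thrombospondin that takes part in collagen fibril assembly, had 8.09, 5.67 and 9.28 CPM in Con, 33.8, 22.6 and 15.9 in PIL, and 7.13, 7.12 and 8.03 in GKO. For both genes the PIL libraries lay above all others. For Pdgfrb the log2 fold change was 1.01 (standard error 0.16, edgeR adjusted p = 0.0107), and its call ended only on the 6 libraries of the pair alone (0.0539) among the 16 other settings. The log2 fold change of Thbs2 was 1.65 (standard error 0.28, edgeR adjusted p = 0.0124), and its call ended without Con 1 (0.0578) and on the 6 libraries of the pair alone (0.0632). For Pdgfra, the related receptor that also marks fibroblasts, the 24.7 to 47.8 CPM of Con overlapped the 46.8 to 55.7 CPM of PIL (log2 fold change 0.38, standard error 0.30, edgeR adjusted p = 0.426).

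Vim, the intermediate filament gene of mesenchymal cells, had 57.3, 64.8 and 56.4 CPM in Con, 341, 199 and 74.6 in PIL, and 72.7, 68.9 and 67.0 in GKO. The lowest PIL library was above the highest of the other 6 by little, while PIL 1 was 4.57 times PIL 3. The log2 fold change of Vim was 1.78 (standard error 0.42, edgeR adjusted p = 0.0367), and leaving out single libraries took its adjusted p from 0.000777 to 0.128. Acta2, the smooth muscle actin gene used as a marker of myofibroblasts, had 80.7, 61.6 and 95.0 CPM in Con and 193, 88.9 and 57.5 in PIL. Its groups overlapped, and only PIL 1 was above the range of Con (log2 fold change 0.52, standard error 0.37, edgeR adjusted p = 0.383).

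**Figure D2:**
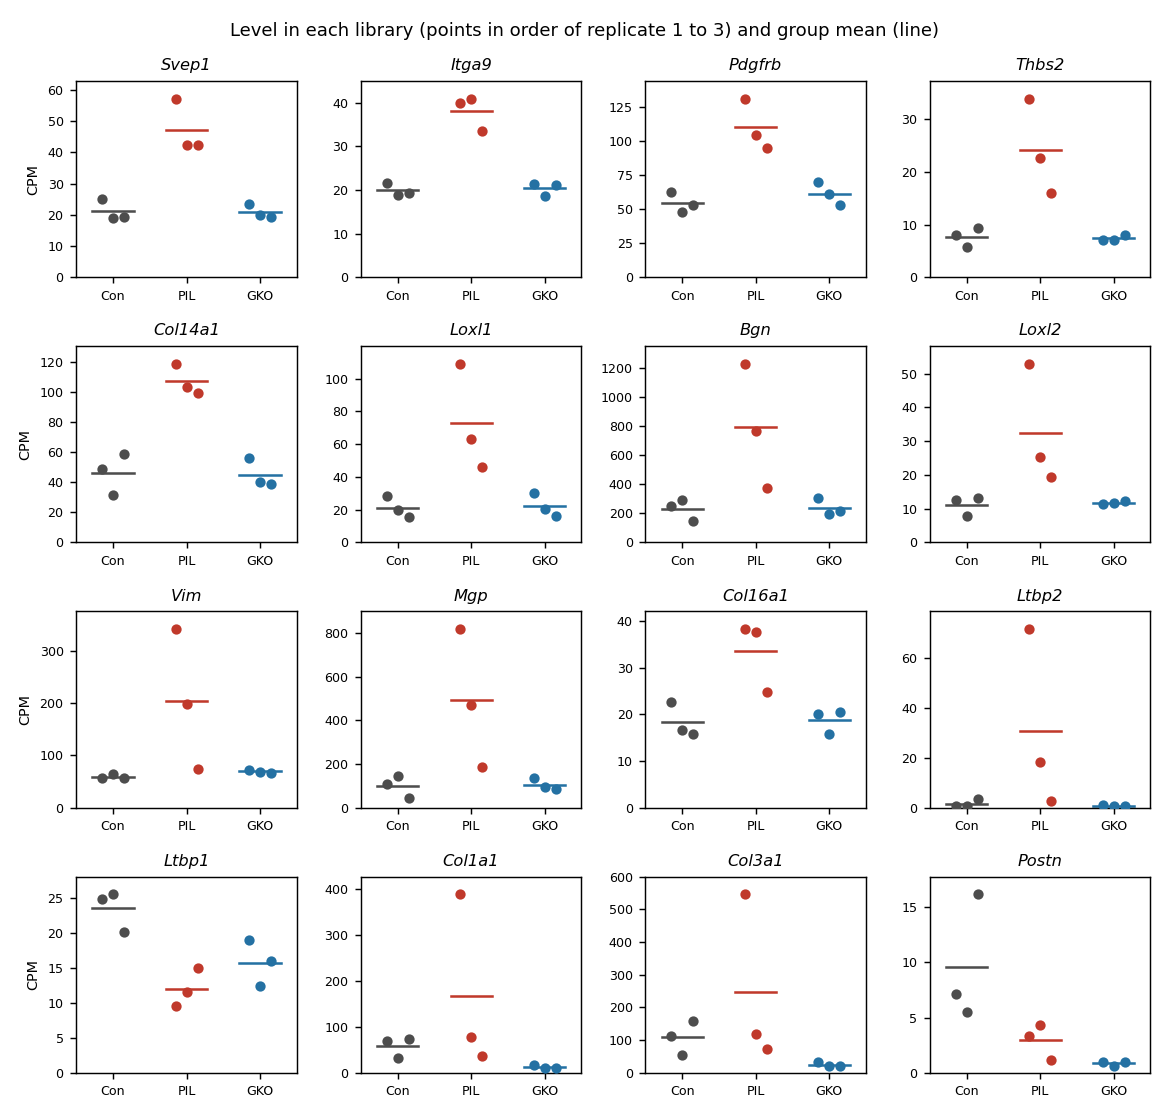
Points are CPM in single libraries, on a linear axis from 0 with its own range in each panel, lines are means of 3 libraries, and panels show the 13 genes called in PIL against Con together with Col1a1, Col3a1 and Postn. Svep1 and Itga9 show narrow groups (Svep1 at 42.2 to 57.1 CPM in PIL against 19.1 to 25.0 in Con), while Ltbp2 runs from 2.48 to 71.3 CPM within PIL.

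Among the collagens, none of the 5 fibril-forming members was called in PIL against Con, although all 5 had log2 fold changes above 0, from 0.58 to 1.50. Col1a1, the alpha 1 chain of collagen I, had 69.9, 32.9 and 74.5 CPM in Con and 388, 77.2 and 36.0 in PIL. PIL 1 was far above every other library, and PIL 3 was within the range of Con (log2 fold change 1.50, standard error 0.73, edgeR adjusted p = 0.216). Col3a1 had the same shape, with 114, 56.2 and 157 CPM in Con and 546, 120.3 and 74.3 in PIL, so 2 of 3 PIL libraries lay inside the range of Con. Col5a2, a chain of the collagen V that nucleates fibrils, differed least between the PIL libraries, which spanned 58.0 to 66.2 CPM above the 35.3 to 50.3 of Con (log2 fold change 0.58, standard error 0.15, edgeR adjusted p = 0.0504).

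Of the 8 other collagens, 2 were called higher, Col14a1 and Col16a1, both members of the family that binds to the surface of fibrils. Col14a1 had 48.7, 31.2 and 58.7 CPM in Con, 118, 104 and 99.1 in PIL, and 55.8, 40.4 and 38.5 in GKO. The PIL libraries were close to each other and above all others (log2 fold change 1.21, standard error 0.23, edgeR adjusted p = 0.0170), and leaving out Con 1 or PIL 2 ended the call (adjusted p up to 0.0672). Col16a1 had 22.7, 16.6 and 15.7 CPM in Con, 38.2, 37.8 and 24.8 in PIL, and 20.2, 15.8 and 20.5 in GKO. Here too PIL was above the other 6 libraries (log2 fold change 0.87, standard error 0.21, edgeR adjusted p = 0.0397), but 8 of the 9 fits without 1 library lost the call (adjusted p up to 0.139). Col6a1, Col6a2 and Col6a3, the chains of beaded collagen VI filaments, had log2 fold changes of 1.20, 1.45 and 0.72 and were not called.

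Of the proteoglycans, Bgn was called higher, with 248, 289 and 144 CPM in Con, 1224, 768 and 377 in PIL, and 306, 195 and 216 in GKO. Its PIL libraries lay above all others, and PIL 1 was 3.25 times PIL 3. The log2 fold change was 1.80 (standard error 0.41, edgeR adjusted p = 0.0329), and without single libraries the adjusted p ran from 0.00397 to 0.108. The related proteoglycan genes Dcn and Lum, whose products coat and space collagen fibrils, had log2 fold changes of 0.40 and 1.15 and were not called. Ogn, of the same family, had its highest level in PIL 3 (53.1 CPM, against 25.3 in PIL 1), the reverse of most genes of the set.

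Of the 8 adhesive and matricellular proteins, Svep1, Thbs2 and Mgp were called higher. Mgp had 107, 144 and 43.2 CPM in Con, 817, 468 and 188 in PIL, and 134, 95.8 and 84.8 in GKO. The PIL libraries were above the other 6 (log2 fold change 2.32, standard error 0.55, edgeR adjusted p = 0.0370), and 7 of the 9 fits without 1 library lost the call (adjusted p up to 0.121). Fn1, which encodes fibronectin, had 45.0, 27.0 and 51.7 CPM in Con and 277, 98.0 and 70.6 in PIL without overlap, and missed the threshold (log2 fold change 1.85, standard error 0.49, edgeR adjusted p = 0.0505). Postn, a matricellular protein often raised in kidney fibrosis, went the other way, with 7.13, 5.53 and 16.1 CPM in Con and 3.36, 4.35 and 1.20 in PIL (log2 fold change -1.68, standard error 0.51, edgeR adjusted p = 0.0759).

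The crosslinking enzymes Loxl1 and Loxl2, both lysyl oxidase homologues, were called higher, and Lox was not. Loxl1 had 28.3, 19.7 and 15.7 CPM in Con, 109, 63.0 and 46.1 in PIL, and 30.2, 20.4 and 16.4 in GKO. Loxl2 had 12.7, 7.69 and 13.1 CPM in Con, 52.8, 25.2 and 19.3 in PIL, and 11.5, 11.7 and 12.2 in GKO. For both, PIL lay above the other 6 libraries, and PIL 1 was highest. The log2 fold changes were 1.78 (standard error 0.36, edgeR adjusted p = 0.0214) for Loxl1 and 1.54 (standard error 0.36, edgeR adjusted p = 0.0335) for Loxl2. Leaving out any 1 Con library or PIL 2 ended both calls, and leaving out any 1 GKO library ended that of Loxl2 (adjusted p up to 0.0643 for Loxl1 and 0.0998 for Loxl2).

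The elastic fibre group held 2 genes called in opposite directions, Ltbp2 and Ltbp1. Ltbp1, which binds latent transforming growth factor beta and stores it in the matrix, had 24.8, 25.5 and 20.1 CPM in Con, 9.48, 11.6 and 14.9 in PIL, and 18.9, 12.3 and 15.9 in GKO. All 3 PIL and all 3 GKO libraries were below all 3 Con libraries (PIL against Con, log2 fold change -0.97, standard error 0.21, edgeR adjusted p = 0.0280), and 5 of the 9 fits without 1 library lost the call (adjusted p up to 0.102). Ltbp2, a relative found on elastic microfibrils, had 0.588, 0.672 and 3.52 CPM in Con, 71.3, 18.4 and 2.48 in PIL, and 1.03, 0.530 and 0.669 in GKO. PIL 3 was below Con 3, so the groups overlapped. Its fold change was the largest of the 42 and had the highest adjusted p of the called ones (log2 fold change 4.24, standard error 1.10, edgeR adjusted p = 0.0481), and 8 of the 9 fits without 1 library lost the call (adjusted p up to 0.159).

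**Figure D3:**
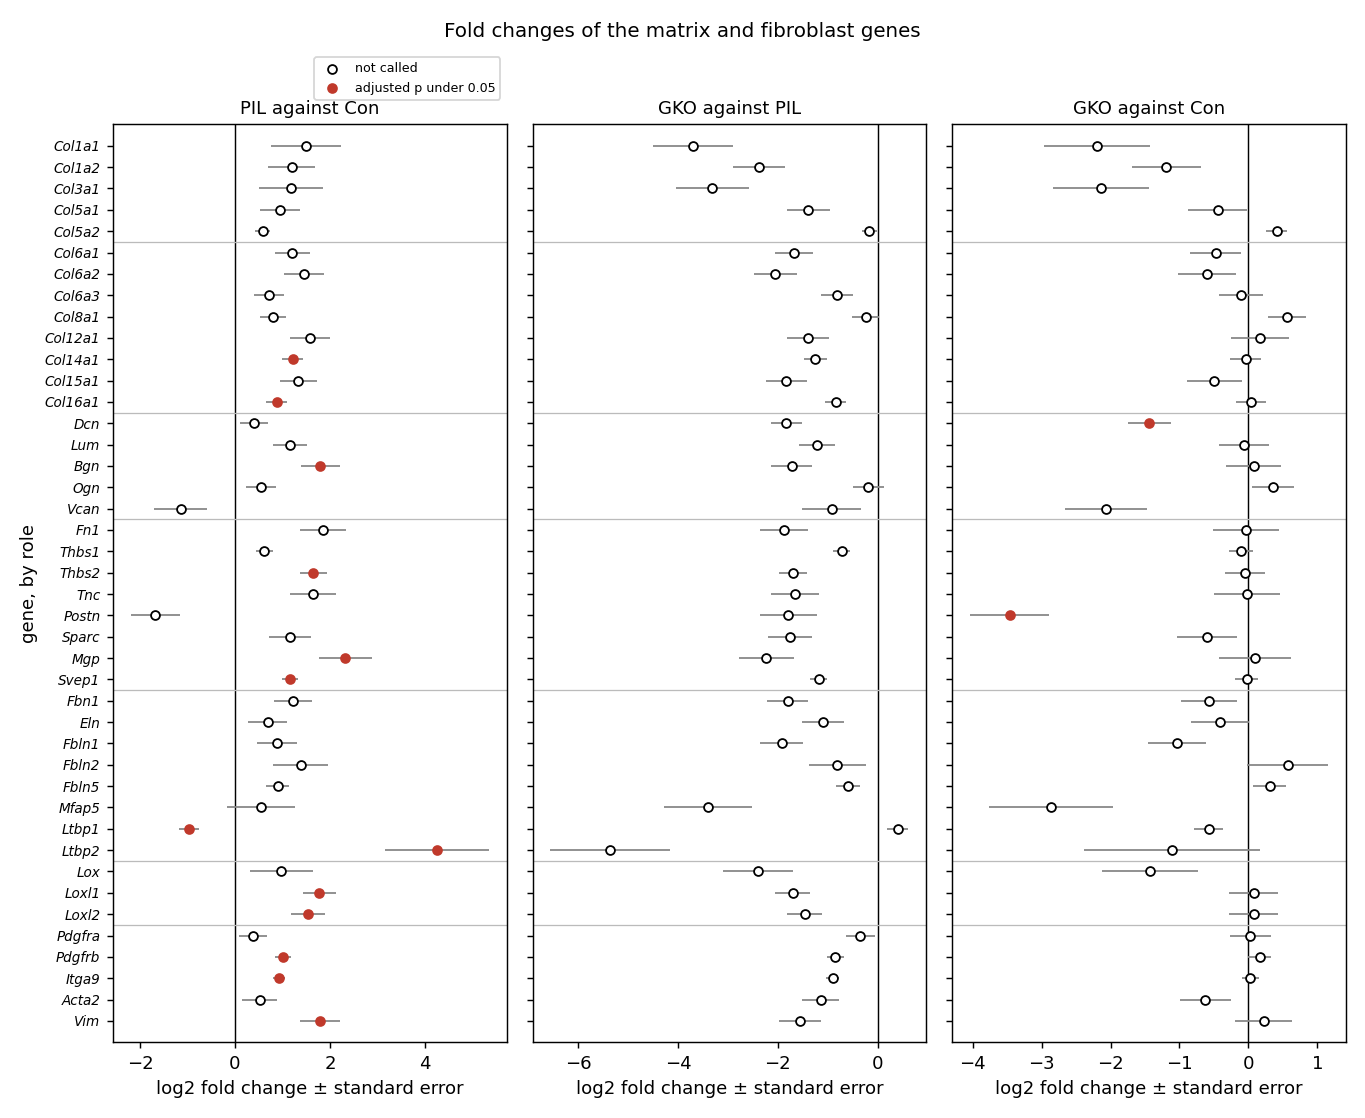
Points are log2 fold changes from the edgeR fit and bars are standard errors, with genes in rows by role, 1 panel for each comparison with its own horizontal range, and filled points for an adjusted p under 0.05. In PIL against Con 13 points are filled (12 to the right of 0), in GKO against PIL none is filled although 41 of 42 lie left of 0, and in GKO against Con only Postn and Dcn are filled.

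How many of the 42 genes were called higher in PIL than in Con rested on single libraries. Without PIL 3, the library nearest to Con, 28 were called higher (13.3% of all genes tested). It was 7 without PIL 1 (2.9% of all genes), 4 without PIL 2 (0.697%) and 3 without Con 1 (0.675%). It was 6 without Con 2 (2.37%), without Con 3 (2%), and without GKO 1, 2 or 3 (2.22%, 2.3% and 2.16%). It was 24 with DESeq2 (8.41%) and 29 with limma-voom and its sample weights (22.8%), and on the 6 libraries of the pair alone it was 2 (0.354%).

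The PIL libraries were graded. PIL 1 was above PIL 2, and PIL 2 above PIL 3, for 32 of the 42 genes, an order that 32.2% of all genes tested also had. Summed over the 42 genes, the PIL libraries had 7215, 3914 and 2387 CPM, where Con had 1647 to 1929 and GKO 1315 to 1815. Within PIL the highest library had a median of 2.97 times the lowest, compared with 1.67 times in Con and 1.57 times in GKO. PIL 3 was above the range of Con for 21 genes and below it for 6, where 25.9% of all genes were above in that library. The share of mitochondrially encoded reads ran the other way, at 7.22%, 9.71% and 13.3% in PIL 1, 2 and 3 and 10.8% to 13.4% in the other 6 libraries, and its part in this order was not tested.

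Markers of other cells were measured beside these sums. A list of 12 macrophage markers summed to 1840, 1221 and 405 CPM in PIL, the order of the matrix genes, against 152 to 476 in Con and 227 to 350 in GKO. Of these 12 markers, 6 were called higher in PIL than in Con, and their part in the matrix result was not tested. Trem2, a receptor of macrophages at sites of injury, had 14.1, 9.84 and 1.96 CPM in PIL and at most 0.368 in Con. A sum of 6 proximal tubule markers was lowest in PIL 1 (5888 CPM, with 10062 to 13110 in Con), while 10 endothelial markers summed to 651 to 803 CPM in Con, 705 to 883 in PIL and 681 to 817 in GKO. Of 6 podocyte markers, 5 were called higher in PIL than in Con and 4 higher in GKO than in Con, and they summed to 321 to 493 CPM in Con and 511 to 689 in the other 6 libraries. The part of these cells was not tested either.

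**Figure D4:**
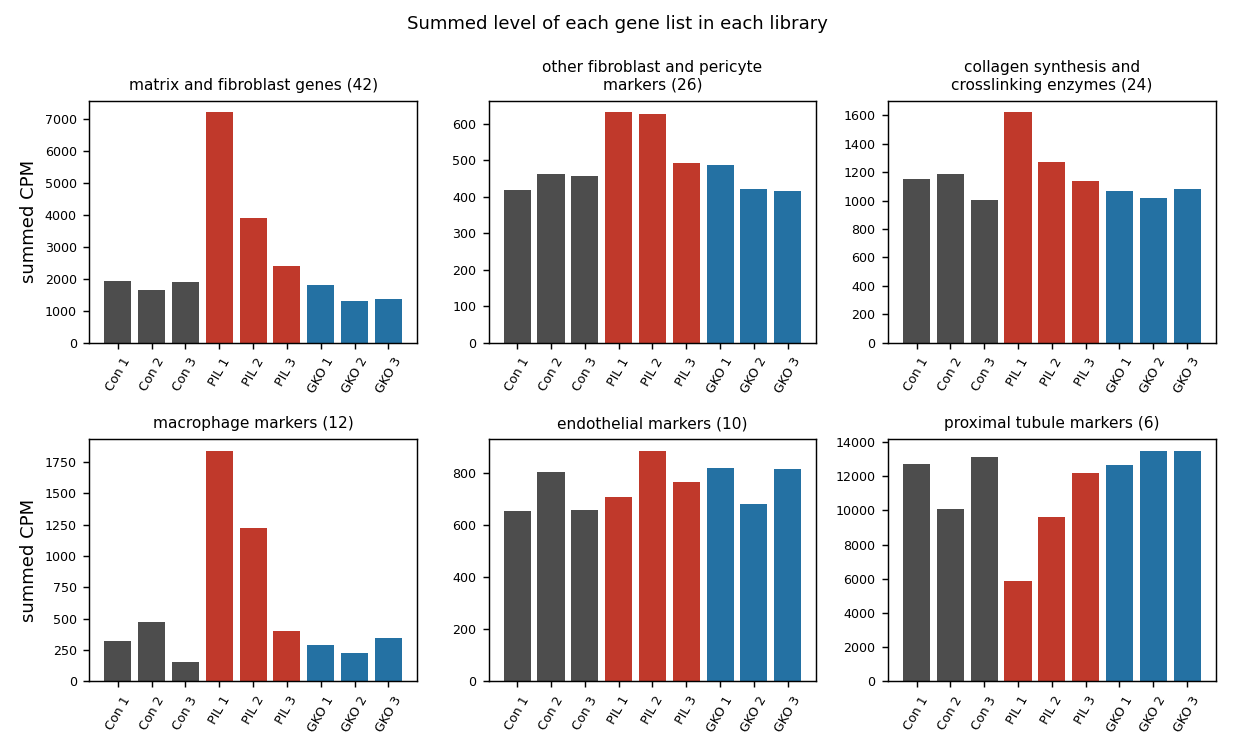
Bars are CPM summed over each gene list in each library, on linear axes from 0, with Con in grey, PIL in red, GKO in blue and the number of genes in brackets. The matrix genes and the macrophage markers fall in the same order over PIL 1, 2 and 3 (7215, 3914 and 2387 CPM, and 1840, 1221 and 405 CPM), and the endothelial sums stay between 651 and 883 CPM in all 9 libraries.

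Matrix and fibroblast genes outside the 42 were read from lists. Of 43 other matrix proteins tested, 7 were called higher in PIL than in Con and 1 lower, with a median log2 fold change of 0.69. Tgfbi, a collagen-binding protein named for its induction by transforming growth factor beta, had 18.7, 30.2 and 14.4 CPM in Con and 103, 96.7 and 39.9 in PIL (log2 fold change 1.92, standard error 0.37, edgeR adjusted p = 0.0180). Spp1, osteopontin, which injured tubules and macrophages also make, rose to 12884 CPM in PIL 1 against 831 to 1293 in Con (log2 fold change 2.60, standard error 0.59, edgeR adjusted p = 0.0318). Col4a5, a chain of basement membrane collagen IV, was the gene called lower, and is named for that after its values were seen (log2 fold change -0.93, standard error 0.23, edgeR adjusted p = 0.0425).

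Of 22 enzymes of collagen synthesis and crosslinking, 4 were called higher and none lower (median 0.39). Bmp1, the protease that cuts the carboxyl propeptide from collagens, had 11.8, 11.3 and 11.4 CPM in Con, 62.6, 34.7 and 22.7 in PIL, and 20.8, 23.3 and 22.4 in GKO. Its PIL and GKO libraries were all above Con (PIL against Con, log2 fold change 1.79, standard error 0.31, edgeR adjusted p = 0.0129). Of 21 fibroblast and pericyte markers outside the set, Tcf21, Pi16 and Cygb were called higher and none lower (median 0.38). Of 10 smooth muscle markers, Des and Cald1 were called higher and none lower (median 0.26).

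GKO against PIL asks how the kidneys of Gsdmd-/- mice differed from those of pristane-treated wild-type mice. Because the sources conflict on the GKO treatment, a difference here is not assigned to the genotype. All but 1 of the 42 genes had a log2 fold change below 0, the exception being Ltbp1 at 0.40 (standard error 0.21, edgeR adjusted p = 0.293). None was called by edgeR in either direction, and neither was any of the 14069 genes (0% higher and 0% lower). At an unadjusted p under 0.05, 35 of the 42 were lower and 0 higher, where the shares over all genes were 13% and 7.93%. The median log2 fold change was -1.51, and 0.00 over all genes. The GKO libraries lay wholly below the PIL libraries for 30 of the 42 genes and wholly above for 0, where the shares over all genes were 14.1% and 13.8%.

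The call depended on the tool and on PIL 3. DESeq2 called 32 of the 42 lower (4.82% of all genes it tested), limma-voom with sample quality weights called 34 lower (22.8%) and 1, Ltbp1, higher (23%), and edgeR without PIL 3 called 33 lower (12.2%). GKO against PIL and PIL against Con use the same PIL libraries, so their values are not independent and stand side by side here for each gene.

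The 6 genes with the lowest p in GKO against PIL were Itga9, Svep1, Thbs2, Dcn, Col14a1 and Pdgfrb. Their log2 fold changes were -0.90 (standard error 0.12) for Itga9, -1.18 (0.17) for Svep1, -1.70 (0.28) for Thbs2, -1.83 (0.31) for Dcn, -1.25 (0.23) for Col14a1 and -0.85 (0.16) for Pdgfrb. The edgeR adjusted p was 0.111 for Itga9 and Svep1 and 0.127 for the other 4. Dcn, whose product decorin binds collagen fibrils, had 91.2, 101 and 40.1 CPM in PIL and 24.1, 17.5 and 23.6 in GKO. For all 6 genes, every GKO library was below every PIL library.

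By size, the fibril collagens were among the largest differences in GKO against PIL, after Ltbp2 (log2 fold change -5.35, standard error 1.20). Col1a1 had 16.9, 10.3 and 11.4 CPM in GKO, and its PIL mean was 13.0 times its GKO mean (log2 fold change -3.70, standard error 0.81, edgeR adjusted p = 0.127). Col3a1 had 32.8, 20.3 and 21.6 CPM in GKO (log2 fold change -3.31, standard error 0.73), and Col1a2, the alpha 2 chain of collagen I, had 64.5, 45.1 and 43.1 (-2.38, standard error 0.52), both with an edgeR adjusted p of 0.127. The collagen V chain Col5a2 had 50.3, 51.4 and 60.8 CPM in GKO, overlapping PIL (log2 fold change -0.17, standard error 0.15, edgeR adjusted p = 0.489). Within the fibril-forming group the differences therefore ranged from -3.70 to -0.17 on the log2 scale.

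GKO against Con asks whether the kidneys of Gsdmd-/- mice stood at the level of saline-treated wild-type mice. The 42 genes went both ways, with log2 fold changes from -3.47 to 0.57, 15 above 0 and 27 below, and a median of -0.08 (-0.01 over all genes). edgeR called 0 higher and 2 lower, Postn and Dcn, where 1.55% of all genes were called higher and 1.46% lower. At an unadjusted p under 0.05, 1 was higher and 9 were lower, where the shares over all genes were 7.68% and 6.93%. DESeq2 called 0 higher and 4 lower, and 2.8% and 2.66% of all genes it tested. The GKO libraries lay wholly above Con for 2 genes, Col8a1 and Vim, and wholly below for 11, where the shares over all genes were 13.3% and 11.5%.

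Postn had 7.13, 5.53 and 16.1 CPM in Con and 0.960, 0.606 and 1.0 in GKO. All 3 GKO libraries were below all 6 others, and Con 3 was the highest (GKO against Con, log2 fold change -3.47, standard error 0.58, edgeR adjusted p = 0.0144). Leaving out any 1 GKO library ended the call (adjusted p up to 0.0905). Dcn had 51.6, 66.2 and 58.7 CPM in Con, a narrow range above the 17.5 to 24.1 of GKO. Its log2 fold change was -1.44 (standard error 0.31, edgeR adjusted p = 0.0401), and leaving out any 1 Con or GKO library ended the call (adjusted p up to 0.181).

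The next 4 genes by p were Vcan, Mfap5, Col3a1 and Col1a1, none of them called. Vcan, a large hyaluronan-binding proteoglycan, had 7.13, 5.75 and 1.90 CPM in Con and 1.85, 0.909 and 0.736 in GKO (log2 fold change -2.07, standard error 0.59, edgeR adjusted p = 0.119). Mfap5, a microfibril protein, had 1.69, 1.57 and 1.96 CPM in Con and 0.0686, 0.151 and 0.468 in GKO, where 3 counts, taken as the floor of detection, are worth 0.201 to 0.227 CPM. Col1a1 and Col3a1 had log2 fold changes of -2.20 (standard error 0.77) and -2.13 (0.70), with edgeR adjusted p of 0.205 and 0.173, and all their GKO libraries were below all 6 others.

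Several markers of urothelium and fat had lower levels in PIL and GKO than in Con. Of 7 urothelium markers, 3 were called lower in GKO than in Con and 4 lower in PIL than in Con. In PIL against Con 6 had a log2 fold change below 0 and 1 above 0, at 2.89, while in GKO against Con all 7 were below 0. Together the 7 summed to 153 to 171 CPM in Con, 189, 115 and 112 in PIL, and 87.0 to 93.5 in GKO. Upk3a, a uroplakin of the bladder and renal pelvis lining, had 4.48, 4.70 and 7.25 CPM in Con, at most 0.280 in PIL, and 0.206, 0 and 0 in GKO. A list of 9 fat markers summed to 1373, 1067 and 1247 CPM in Con, 287, 458 and 691 in PIL, and 639, 475 and 642 in GKO. All 5 of them that were tested had log2 fold changes below 0 in both comparisons with Con. The fat markers Plin1 and Ucp1 had 20.0 and 19.3 CPM in Con 3 and at most 2.48 in any other library. Both were too low to be tested and were picked after their values were seen. Con 3 was also the library with the most Postn, while the fat sum was highest in Con 1, where Postn had 7.13 CPM. Dcn was highest in Con 2, at 66.2 CPM, where the fat sum was the lowest of Con. The part of pelvis or fat tissue in the Postn and Dcn results was not tested.

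The proportion between the 2 chains of collagen I, whose protein is built of both, was also compared. The FPKM of Col1a1 over that of Col1a2 was 1.04, 0.670 and 1.10 in Con, 1.45, 0.759 and 0.724 in PIL, and 0.498, 0.433 and 0.500 in GKO. All 3 GKO libraries were below the other 6. The ratio of Col3a1 to Col1a2 was 0.644, 0.570 and 0.635 in GKO, also below every other library (0.766 to 1.56). Other chain ratios did not share this. Col6a3 over Col6a1 had its highest mean in GKO (0.362, with 0.284 in Con and 0.235 in PIL). For Col6a2 over Col6a1 and for Col5a1 over Col5a2, the GKO libraries overlapped those of Con. In an exact 2-sided permutation test each of these GKO differences gave p = 0.1, the smallest that 3 libraries against 3 allow, and 0.3 after Benjamini-Hochberg adjustment over the 15 ratio tests made, so none passed. The ratios were chosen after values of these genes had been seen.

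**Figure D5:**
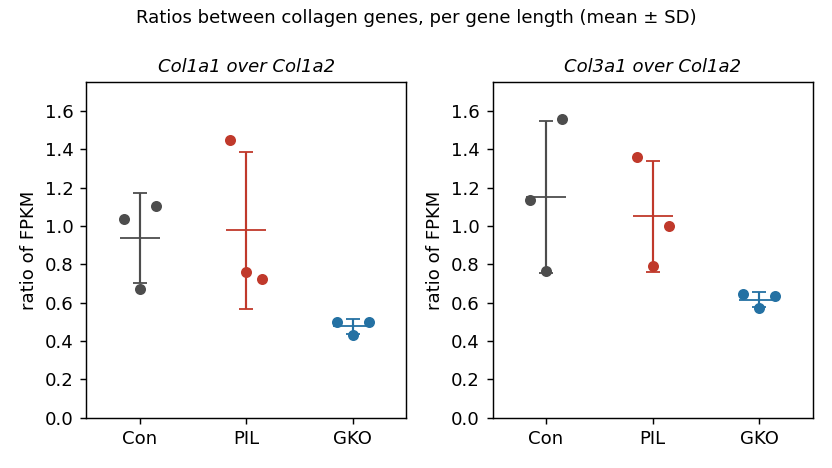
Points are ratios of FPKM between 2 collagen genes in single libraries, and bars are means ± SD of 3 libraries, on linear axes from 0. Ratios of collagen V and VI chains are not shown. The GKO points lie between 0.433 and 0.500 for Col1a1 over Col1a2 and between 0.570 and 0.644 for Col3a1 over Col1a2, below all Con and PIL points.

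Of the 22 enzymes of collagen synthesis and crosslinking, 2, Loxl4 and Pcolce2, were called higher in GKO than in Con and none lower, with a log2 fold change below 0 for 14 and a median of -0.11. Loxl4, another lysyl oxidase homologue, had 4.04, 2.09 and 3.73 CPM in Con, 4.32, 12.6 and 12.3 in PIL, and 20.8, 20.2 and 31.4 in GKO. It was highest in all 3 GKO libraries (GKO against Con, log2 fold change 2.87, standard error 0.43, edgeR adjusted p = 0.00910). Pcolce2, an enhancer of propeptide cleavage, had 0.588, 0.821 and 2.03 CPM in Con, 4.99, 7.87 and 8.50 in PIL, and 7.34, 6.82 and 10.4 in GKO. Both PIL and GKO stood above Con for Pcolce2, and were called (GKO against Con, log2 fold change 2.81, standard error 0.44, edgeR adjusted p = 0.0107). Of the 43 other matrix proteins 1 was called lower and none higher, Dpt, a protein that binds decorin, with 9.63, 7.84 and 5.69 CPM in Con and 2.19, 2.27 and 2.54 in GKO (log2 fold change -1.72, standard error 0.38, edgeR adjusted p = 0.0450).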

How the data were processed

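Kidney RNA was isolated with TRIzol and sequenced as paired ends on an Illumina Novaseq6000. According to the study's methods, Hisat2 was the authors' aligner (genome mm10) and HTSeq their counter (TopHat2 is also named, and versions and strand setting are not given in the sources used here). The read counts deposited by the authors are raw counts per gene. The FPKM values deposited by the authors divide these counts by gene length and library total. The deposited values were 0.99999429 to 0.99999633 times the FPKM recomputed from the counts.

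Counts were filtered with filterByExpr and scaled by TMM, and groups were compared in 1 fit of all 9 libraries with the robust quasi-likelihood test of edgeR 4.0.16 in R 4.3.3 (6 residual degrees of freedom, Benjamini-Hochberg adjustment over all genes tested, calls at an adjusted p under 0.05). The standard error is the log2 fold change divided by the square root of F. CPM used TMM-scaled library sizes without a prior count. Alternatives were RLE scaling, other filters on low counts, DESeq2 1.42.0, limma-voom (limma 3.58.1) with sample quality weights, a replicate block, the 6 libraries of a pair, and each library left out in turn. The test code was checked on simulated counts. Replicates differed by 8.10 to 148 times counting variance per degree of freedom, more than resequencing of 1 library would give. This does not decide whether they came from separate mice.

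Libraries were grouped by title and genotype labels. Full values were given for genes called in a comparison or, where fewer than 6 were called, for the 6 with the lowest p there. Outside the 42 genes, up to 4 per list with the lowest p were named, with Col4a5, Plin1, Ucp1 and S100a4 added after their values were seen. The 42 genes, the lists and the roles were chosen with earlier results of these data known. By ID, all 42 match GENCODE M21 with the same start and end. Exons of 1, Fbn1, overlap another coding gene on the opposite strand. S100a4, a fibroblast marker, had 0 counts in every library. Promoter windows came from RefSeq (GRCm38.p6).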

Additional observations from a re-analysis of the deposited data

How the results depend on the processing

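No gene followed here that was called, in the main fit or in another setting, changed direction between them. Sign changes of genes called in neither were not counted. In PIL against Con, members called higher numbered 12, and 24 with DESeq2, 29 with limma-voom, 2 on the 6 libraries of the pair and 3 to 28 without single libraries. Those called lower numbered 1, and 2, 3, 0 and 0 to 1 in the same order, and all genes called numbered 1072, and 2278, 6223, 130 and 226 to 3684. Of all genes tested, 3.14% were called lower, and 6.18%, 21.4% and 0.585% with DESeq2, limma-voom and the 6 libraries. In GKO against PIL, members called lower numbered 0, and 32 with DESeq2, 34 with limma-voom and 0 to 33 without single libraries, with 1 called higher by limma-voom only and 0 to 0 without single libraries. All genes called there numbered 0, and 887 with DESeq2, 6443 with limma-voom, 1 on 6 libraries and 0 to 3204 without single libraries. In GKO against Con, members called lower numbered 2, and 4 with DESeq2, 9 with limma-voom, 6 on 6 libraries, 1 with at least 10 counts in every library and 0 to 4 without single libraries. Of all genes tested, 1.46% were called lower, and 2.66%, 7.46%, 2.63% and 1.31% in these first 4 settings in order. With limma-voom 2 members were called higher (8.19% of all genes). All genes called numbered 423, and 872, 2201, 766 (DESeq2, limma-voom, 6 libraries) and 105 to 705. Why the tools differ was not tested.

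Same-numbered libraries of different groups correlated between -0.138 and 0.289, and differently numbered ones between -0.338 and 0.248. These ranges overlap, so they do not decide whether the replicate numbers pair the libraries. With a replicate block, 17 members were called higher and 1 lower in PIL against Con (3.99% and 2.85% of all genes). In GKO against PIL 2 were called lower (Svep1 and Loxl1, with 3 of all genes called, and 0.0142% lower). In GKO against Con 2 were called lower (1.17% of all genes).

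A count of 3 is worth 0.168 to 0.227 CPM, so levels of Mfap5, Ltbp2, Postn and Vcan near or below 1 CPM rest on few reads. With 3 libraries a group and a wide spread in PIL, a gene not called may still differ.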
